A study of Mus musculus with 6 samples.

Results

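MHC class II genes and their regulators were described in CD4+CD8+ double-positive (DP) thymocytes sorted from mice with and without a conditional deletion of Paxbp1, by RNA-Seq. The 10 genes were taken by symbol from the 22322 genes of the table. They comprise 6 presentation genes (H2-Aa, H2-Ab1, H2-Eb1, Cd74, H2-DMa and H2-DMb1) and 4 regulators (Ciita, Rfx5, Rfxap and Rfxank). They were chosen by symbol with the measured fold changes between the genotypes in these libraries in view. Their values in this comparison are therefore a description of these libraries, and their calls are no independent evidence.

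The control group (WT, Paxbp1 fl/fl, n = 3 libraries) came from littermates for which no Cre is named. The cKO group (Paxbp1 fl/fl Lckcre, n = 3 libraries) carried the same floxed alleles and the Lck-cre transgene, which is active in the T lineage. All mice were untreated, of either sex, on the C57BL/6 background and 4 to 7 weeks old, and the libraries are named control 1 to 3 and cKO 1 to 3. Neither the labels nor the methods say whether each library came from its own mouse, so the p-values measure the spread between these samples. The loxP sites flank exon 8 of Paxbp1, and a count over the whole gene draws mostly on other exons, so that it does not check the deletion. The study itself reported complete deletion before the DP stage by qPCR in its cKO mice. It also reported efficient loss of the protein in sorted DP thymocytes by western blot. Paxbp1 was at 40.1, 16.3 and 15.5 CPM (counts scaled to a common library size) in the control libraries and at 38.8, 47.1 and 49.6 CPM in the cKO libraries, and control 1 lay within the cKO range. Library totals ran from 18963775 to 26252248 counts, and a single count stood for 0.0388 to 0.0521 CPM. Without control 1 the number of genes called rose from 514 to 1000 among those higher in cKO and from 677 to 1030 among those lower, and results of the members are given without this library where it mattered.

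MHC class II molecules are pairs of an alpha and a beta chain that display peptides to CD4 T cells. The invariant chain, encoded by Cd74, escorts new class II molecules to the endosomes, where cathepsins degrade it, and H2-DM then exchanges its remnant for a peptide. The coactivator Ciita switches the whole gene group on. It has no DNA contact of its own and sits on a complex of RFX (Rfx5, Rfxap and Rfxank), CREB and NF-Y, which bind the X and Y boxes of class II promoters. RFX and NF-Y are made in most cells, whereas Ciita is made in dendritic cells, B cells, macrophages and thymic epithelial cells. Mouse T cells are usually regarded as lacking class II transcription, and DP thymocytes are the cells whose receptors are tested against the MHC molecules of other thymic cells.

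Promoter sequences are shown because the RFX and NF-Y sites are what ties these regulators to the presentation genes. RefSeq promoter windows on GRCm38.p6, from 250 bases before to 50 bases after the start of a gene, were matched by symbol for 6 of the 10 members, with 7 windows in all since H2-DMa has more than 1. The 200 bases before the start are printed 5′ to 3′ on the strand of the gene for H2-Aa (chr17:34287824-34288023, minus strand) and H2-Eb1 (chr17:34305667-34305866, plus strand), and for Rfxank (chr8:70139198-70139397, minus strand) as a regulator. Capitals mark GNAAC and TGATTGG in H2-Aa and H2-Eb1. In Rfxank they mark ATTGG, the reverse complement of the Y box core CCAAT.
H2-Aa: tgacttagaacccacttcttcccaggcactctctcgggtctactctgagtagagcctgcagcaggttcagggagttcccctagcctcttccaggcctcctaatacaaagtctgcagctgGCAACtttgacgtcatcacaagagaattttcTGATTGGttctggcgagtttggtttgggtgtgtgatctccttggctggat
H2-Eb1: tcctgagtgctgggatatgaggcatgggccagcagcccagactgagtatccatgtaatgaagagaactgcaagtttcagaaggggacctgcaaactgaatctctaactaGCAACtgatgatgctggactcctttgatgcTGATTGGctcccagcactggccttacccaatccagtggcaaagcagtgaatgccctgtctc
Rfxank: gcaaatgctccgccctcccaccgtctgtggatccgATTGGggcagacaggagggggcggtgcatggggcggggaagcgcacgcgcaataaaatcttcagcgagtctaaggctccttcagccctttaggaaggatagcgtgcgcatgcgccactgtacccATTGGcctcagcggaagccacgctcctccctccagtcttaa

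In H2-Aa the capitals began 81 and 50 bases before the start, and in H2-Eb1 91 and 61 bases before it. The pair of GNAAC followed after 25 to 35 bases by TGATTGG on the same strand was chosen after these sequences had been read, and TGATTGG contains ATTGG. It occurred, with both strands searched, in 0.323% of all 32851 windows, among them those of H2-Aa, H2-Eb1 and H2-DMb1. In H2-DMb1 it began 94 and 63 bases before the start. Of the 7 class II genes of the H2 region with a window, 5 held it, with H2-Oa and H2-Ob beside the members. CCAAT alone occurred in 37.4% of all windows and in 6 of the 7 member windows. These matches describe letters and no binding was measured.

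Among the presentation genes, the invariant chain gene Cd74 was 3.43-fold, the I-A alpha chain gene H2-Aa 3.82-fold and the I-E beta chain gene H2-Eb1 3.74-fold higher in cKO than in control libraries. These 3 were called higher, whereas H2-Ab1, H2-DMa and H2-DMb1 did not pass the test. No presentation gene was called lower. A gene was called at an adjusted p below 0.05 in the quasi-likelihood test of edgeR across all 11488 genes tested. Of all tested genes, 4.47% were called higher and 5.89% lower, or 10.4% in either direction. Values below are CPM after TMM scaling, and log2 fold changes are cKO over control with their standard error (SE). In bulk RNA, a different share of cells that express a gene and a different level per cell cannot be told apart.

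**Figure D1:**
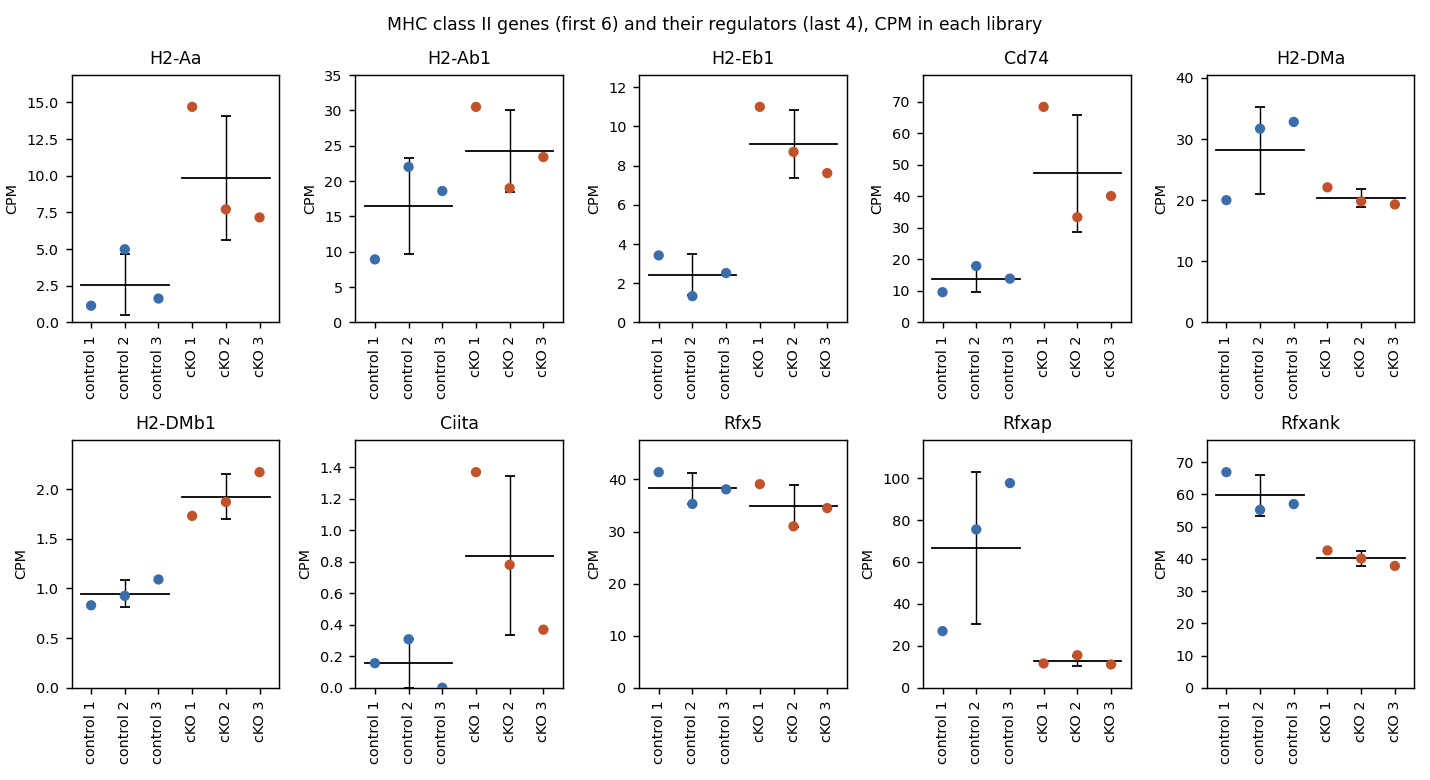
CPM of the 10 members in each of the 3 control (blue) and 3 cKO (red) libraries, on linear axes that start at 0 and differ between genes. Points are libraries, the horizontal line is the group mean and the bar its SD. H2-Aa, H2-Eb1, Cd74, H2-DMb1 and Ciita lay higher in all cKO than in all control libraries, Rfxap and Rfxank lay lower, and H2-Ab1, H2-DMa and Rfx5 overlapped.

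Cd74 (chr18:60803848-60812652 on GRCm38, plus strand), the invariant chain gene, was at 9.6, 17.9 and 13.9 CPM in control libraries and at 68.4, 33.4 and 40.1 CPM in cKO libraries. The groups did not overlap, and cKO 1 stood well above the other cKO libraries. The log2 fold change was 1.78 (SE 0.30, edgeR adjusted p = 0.00825). It was called without any 1 of the 6 libraries, with 1.41 as its lowest value without cKO 1 and adjusted p-values between 0.00856 and 0.0433.

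H2-Aa (chr17:34282744-34287823, minus strand), the alpha chain of I-A, held 1.14, 4.99 and 1.63 CPM in control and 14.7, 7.71 and 7.16 CPM in cKO libraries. Control 2 lay closest to the cKO libraries and cKO 1 was again the highest. The log2 fold change of 1.93 (SE 0.54, edgeR adjusted p = 0.0475) was close to the threshold. The call was lost without control 1 (1.58, adjusted p = 0.0636), control 3 (1.68, 0.12), cKO 1 (1.52, 0.173), cKO 2 (2.08, 0.0742) or cKO 3 (2.11, 0.107), and it was kept only without control 2 (2.81, 0.021).

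H2-Eb1 (chr17:34305867-34316674, plus strand) encodes the beta chain of I-E. C57BL/6 mice make no I-E alpha chain because their H2-Ea gene is defective, and H2-Ea held 0 counts in all 6 libraries. H2-Eb1 was at 3.42, 1.34 and 2.52 CPM in control and at 11, 8.7 and 7.62 CPM in cKO libraries, with a wide gap between the groups. The log2 fold change was 1.90 (SE 0.39, edgeR adjusted p = 0.0157). The call was lost without cKO 1 (1.75, adjusted p = 0.066) and without cKO 3 (2.01, 0.0616).

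H2-Ab1 (chr17:34257689-34269419, plus strand), the beta chain that pairs with the product of H2-Aa, differed less. It held 8.92, 22 and 18.6 CPM in control and 30.5, 19 and 23.4 CPM in cKO libraries. Control 2 lay above cKO 2, and the log2 fold change of 0.56 (SE 0.31, edgeR adjusted p = 0.277) did not pass the test. Within each library, the ratio of H2-Aa to H2-Ab1 FPKM was 0.138, 0.244 and 0.0929 in control and 0.516, 0.437 and 0.328 in cKO libraries. The alpha chain gene was thus the lower of the pair in every library and nearer to the beta chain gene in cKO. The same ratio for H2-Eb1 over H2-Ab1 was 0.344, 0.0641 and 0.126 in control and 0.31, 0.403 and 0.3 in cKO libraries and overlapped between the groups.

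H2-DMa (chr17:34119541-34139101, plus strand) and H2-DMb1 (chr17:34153072-34160230, plus strand) encode the chains of H2-DM, the peptide exchange factor, and their values lay in opposite directions. H2-DMa held 20, 31.7 and 32.8 CPM in control and 22.1, 19.8 and 19.3 CPM in cKO libraries. Control 1 lay among the cKO libraries, and the log2 fold change was -0.46 (SE 0.21, edgeR adjusted p = 0.181). Without control 1 it was -0.66 (SE 0.16, adjusted p = 0.0239), which is a call. H2-DMb1 was at 0.83, 0.925 and 1.09 CPM in control and at 1.73, 1.87 and 2.17 CPM in cKO libraries. These groups did not overlap, but with 16 to 47 counts per library the log2 fold change of 1.02 (SE 0.56, edgeR adjusted p = 0.271) was not called. Of the 50-base words of H2-DMb1 transcripts, 27.2% also occur in H2-DMb2, so that reads of the pair could be exchanged and the H2-DMb1 values are uncertain. Brd2, on the opposite strand, covers 14.8% of the exonic bases of H2-DMa, and no source used here says if the strand of reads was used in counting.

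The makeup of the presentation transcripts differed between the genotypes. Cd74 took 21.8%, 22.7% and 19.7% of the counts of the 6 presentation genes in control libraries and 46.1%, 36.9% and 40.2% in cKO libraries. Exact 95% binomial intervals, which cover counting error only, ran from 17.9% to 24.9% over the control and from 34.7% to 47.8% over the cKO libraries. H2-DMa took 45.6%, 40.2% and 46.5% in control and 14.9%, 21.9% and 19.4% in cKO libraries. Per length, Cd74 stood at 0.433, 0.522 and 0.387 of the H2-DMa FPKM in control libraries and at 2.79, 1.53 and 1.88 in cKO libraries. H2-DMa was thus the higher of these genes in every control library and Cd74 in every cKO library. The summed level of the 6 genes was 43.9, 78.8 and 70.5 CPM in control and 148, 90.5 and 99.7 CPM in cKO libraries, and cKO 1 was the highest library for H2-Aa, H2-Ab1, H2-Eb1 and Cd74.

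Among the regulators, Rfxap and Rfxank were called lower in cKO, Rfx5 was not called, and Ciita had too few counts to be tested. Rfxap was 5.25-fold and Rfxank 1.49-fold lower. Over the 9 members tested, 3 were thus called higher and 2 lower. With an absolute log2 fold change above 1 as well, the study's own threshold, 3 were higher and 1 was lower, beside 1.53% and 1.23% of all tested genes. For the 9 members the median log2 fold change was 0.56, beside -0.0017 over all tested genes. Groups of CPM were apart for 4 of the 9 upwards and for 2 downwards, which over all tested genes held for 15.7% and 17.3%, or 33.0% in either direction.

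Ciita (chr16:10480059-10528418, plus strand), the coactivator, had 3, 6 and 0 counts in control and 30, 15 and 8 counts in cKO libraries. In CPM these were 0.156, 0.308 and 0 in control and 1.37, 0.781 and 0.369 in cKO, where a count of 3 corresponds to between 0.116 and 0.156 CPM. All cKO libraries lay above all control libraries, and cKO 1 was again the highest. Summed over libraries, 9 counts stood against 53, a ratio of 6.05 per library size with an exact interval of 2.96 to 14 for counting error only. When genes were not filtered on low counts, the log2 fold change was 2.41 (SE 1.37, edgeR adjusted p = 0.314). Dexi, on the opposite strand, spans 71.2% of the exonic bases of Ciita. Dexi was itself lower in cKO, at 62.4 CPM in control and 23.0 CPM in cKO libraries on average (log2 fold change -1.44, SE 0.21, edgeR adjusted p = 0.00557), the opposite direction to Ciita.

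Rfxap (chr3:54803115-54807791, minus strand), a subunit of the RFX complex, held 27, 75.5 and 97.6 CPM in control and 11.6, 15.5 and 11.1 CPM in cKO libraries. Control libraries were spread widely with control 1 the lowest, and the cKO libraries were close together below all of them. The log2 fold change was -2.39 (SE 0.39, edgeR adjusted p = 0.00786). It was -2.77 without control 1, and without cKO 3 it was not called (-2.31, adjusted p = 0.0547). No other annotated gene overlaps Rfxap.

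Rfxank (chr8:70130794-70139154, minus strand), the ankyrin repeat subunit of RFX, held 66.9, 55.2 and 57 CPM in control and 42.6, 40.1 and 37.8 CPM in cKO libraries. The groups were apart with little spread within each. The log2 fold change was -0.57 (SE 0.14, edgeR adjusted p = 0.0309). The call was kept without control 1 (-0.48, adjusted p = 0.0334) and lost without control 2 (0.07), control 3 (0.0643), cKO 1 (0.0747), cKO 2 (0.0777) or cKO 3 (0.135). Nr2c2ap, on the opposite strand, spans 53.7% of the exonic bases of Rfxank and was at 29.5 CPM in control and 30.7 CPM in cKO libraries on average (log2 fold change 0.06, SE 0.17).

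Rfx5 (chr3:94954075-94961561, plus strand), the DNA-binding subunit of RFX, held 41.4, 35.3 and 38.1 CPM in control and 39.1, 31 and 34.5 CPM in cKO libraries. The groups overlapped, and the log2 fold change was -0.13 (SE 0.15, edgeR adjusted p = 0.623). An antisense gene, B230398E01Rik, spans 46.0% of its exonic bases. Relative to Rfx5, the other subunits were lower in each cKO than in each control library. The ratio of Rfxap to Rfx5 FPKM was 1.05, 3.89 and 4.11 in control and 0.518, 0.86 and 0.622 in cKO libraries. For Rfxank over Rfx5 it was 2.21, 2.81 and 2.34 in control and 1.48, 1.93 and 1.79 in cKO libraries. Rfxap thus had the highest mean FPKM of the RFX subunits in control libraries, where its range overlapped that of Rfxank, and the lowest in cKO libraries.

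Levels were compared between genes per length, as FPKM. In control libraries Rfxap had the highest mean (30.5 ± 16.2, SD, n = 3), followed by Rfxank (25.5 ± 0.845), H2-DMa (24.3 ± 5.66), H2-Ab1 (13.6 ± 5.46), Cd74 (10.9 ± 3.21) and Rfx5 (10.5 ± 1.58). Each of these overlapped the next in its range over libraries. H2-Aa (2.27 ± 1.83) lay below Rfx5 without overlap and was not separate from H2-Eb1 (1.88 ± 0.706). H2-DMb1 (0.673 ± 0.0808) and Ciita (0.03 ± 0.0265) came last, each apart from the gene before it. In cKO libraries Cd74 led with 38.0 ± 15 FPKM, apart from H2-Ab1 (20.2 ± 4.83), which overlapped H2-DMa (18.2 ± 1.44). Rfxank (15.5 ± 0.74) stood apart on both sides. Rfx5 (9.04 ± 1.21), H2-Aa (8.78 ± 3.74), H2-Eb1 (6.68 ± 1.07) and Rfxap (5.93 ± 1.14) each overlapped the next, and H2-DMb1 (1.38 ± 0.15) and Ciita (0.15 ± 0.101) were again the lowest. Cd74 moved from the fifth to the first place and Rfxap from the first to the eighth.

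**Figure D2:**
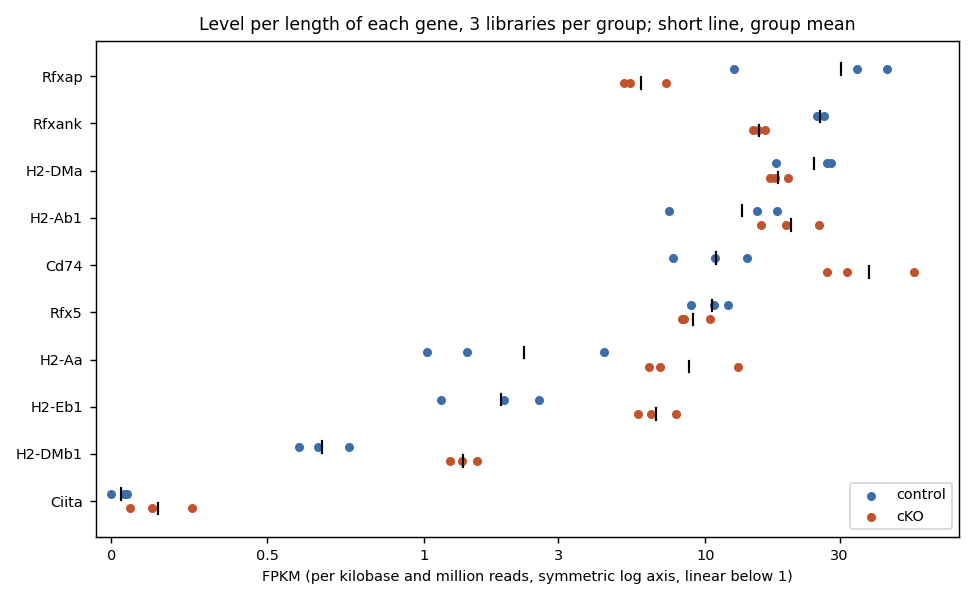
FPKM of each member in 3 control (blue) and 3 cKO (red) libraries, ordered by the control mean, on a symmetric log axis that is linear below 1. Short vertical lines are group means. Cd74 had a mean of 10.9 FPKM in control and 38.0 FPKM in cKO libraries, whereas Rfxap had 30.5 and 5.93 FPKM.

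Of the other class II genes of the H2 region, 3 of 5 were tested and none was called by edgeR or DESeq2, with 1 at an unadjusted p below 0.05. Their median log2 fold change was 0.18, and H2-Ea and H2-Eb2 held no count. H2-Oa and H2-Ob encode H2-O, the inhibitor of H2-DM. H2-Oa was at 14.6, 16.4 and 15.4 CPM in control and at 10.3, 11.9 and 7.06 CPM in cKO libraries, groups that did not overlap, with a log2 fold change of -0.67 (SE 0.24, edgeR adjusted p = 0.102). H2-Ob (0.47, SE 0.34, adjusted p = 0.409) and H2-DMb2 (0.18, SE 0.46, adjusted p = 0.846) overlapped between the groups. The 5 members on chromosome 17 lie within 197.1 kilobases, from 34119541 to 34316674, and of these H2-Aa and H2-Eb1 were called.

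Genes of class II peptide processing and turnover moved in both directions. Of 9 genes, 8 were tested, 2 were called higher and 2 lower, and the median log2 fold change was 0.10. Ctss, the cathepsin that degrades the invariant chain in dendritic cells and B cells, rose from 3.06, 4.22 and 2.37 CPM to 13.6, 6.46 and 9.46 CPM (1.62, SE 0.37, edgeR adjusted p = 0.0234). Lgmn, an endosomal asparagine endopeptidase, rose from 4.25, 2.72 and 2.56 CPM to 7.03, 8.18 and 9.56 CPM (1.38, SE 0.33, adjusted p = 0.0293). Ctsl, which serves in place of Ctss in thymic epithelial cells, was far more abundant and fell from 301, 283 and 281 CPM to 184, 218 and 180 CPM (-0.57, SE 0.12, adjusted p = 0.0158). Ctsd, an aspartic protease of lysosomes, fell from 699, 659 and 565 CPM to 397, 436 and 379 CPM (-0.67, SE 0.12, adjusted p = 0.00968). In all 4 genes the groups were apart. Cd83, which stabilizes class II at the cell surface, had 9, 0 and 1 counts in control and 107, 0 and 23 counts in cKO libraries and was not tested. Without cKO 3, none of the 4 calls remained, with adjusted p-values of 0.0887 for Ctss, 0.131 for Lgmn, 0.0943 for Ctsl and 0.068 for Ctsd. Ctss also lost its call without control 3 (0.0667) or cKO 1 (0.0967), Lgmn without control 2 (0.0979), control 3 (0.0809), cKO 1 (0.0606) or cKO 2 (0.0655), and Ctsl without control 2 (0.0549) or cKO 1 (0.0712).

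Factors that act on class II promoters together with RFX were not called by edgeR. This held for all 9 tested genes (Nfya, Nfyb, Nfyc, Creb1, Atf1, Crebbp, Ep300, Kat2b and Carm1), whose median log2 fold change was 0.05. The highest was Atf1, a CREB family factor, at 0.46 (SE 0.14, edgeR adjusted p = 0.069), and the NF-Y subunits lay between -0.21 and -0.13. Of the 7 other RFX family factors, 4 were tested and none was called, with a median of -0.14. Another list held 8 genes of the class I pathway (H2-K1, H2-D1, B2m, Tap1, Tap2, Tapbp, Psmb8 and Psmb9), whose promoters were not searched here. All were tested and none was called, with a median of 0.03, 4 positive and 4 negative values. The class I chain genes H2-K1 (0.81, SE 0.25, edgeR adjusted p = 0.0629), B2m (0.46, SE 0.13, adjusted p = 0.0556) and H2-D1 (0.21, SE 0.14, adjusted p = 0.376) were positive. Tap2 (-0.38, SE 0.12, adjusted p = 0.0634) and Psmb9 (-0.44, SE 0.18, adjusted p = 0.134) were the lowest. At an unadjusted p below 0.05 stood 1 of the promoter complex factors, 0 of the RFX family and 4 of the class I pathway genes. DESeq2 called 1 of the promoter complex factors higher, 2 of the class I pathway genes higher and 1 lower, and none of the RFX family.

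A list of factors known to act on Ciita also held the related gene Nlrc5. The median log2 fold change of the list was 0.66 over the 9 of 10 genes that were tested, and 1 was called. Irf1, which drives Ciita under interferon, rose from 254, 124 and 147 CPM to 410, 246 and 420 CPM (1.04, SE 0.27, edgeR adjusted p = 0.0389), although control 1 lay above cKO 2. Without control 1 it was 1.40 (adjusted p = 0.00391), and the call was lost without control 2 (0.84, 0.119), control 3 (0.92, 0.104), cKO 1 (0.93, 0.126) or cKO 3 (0.91, 0.155). Irf4 (1.49, SE 0.45, adjusted p = 0.0602), Spi1, the myeloid and B cell factor PU.1 (2.18, SE 0.76, adjusted p = 0.0934), Irf8 (0.66, adjusted p = 0.0991) and Nlrc5, the class I counterpart of Ciita (1.01, SE 0.40, adjusted p = 0.133), were not called. Spi1 had 3, 10 and 7 counts in control and 47, 22 and 22 counts in cKO libraries, and it passed the filter on low counts only because of the cKO libraries. Pax5 was counted in cKO 1 only, with 4 counts. Of the 9 tested genes of the list, 6 stood at an unadjusted p below 0.05 (edgeR), and 7 had positive values. The 2 negative ones were Socs1 (-0.39, SE 0.13, edgeR adjusted p = 0.0877), whose groups were apart, and Prdm1 (-0.03, SE 0.34).

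**Figure D3:**
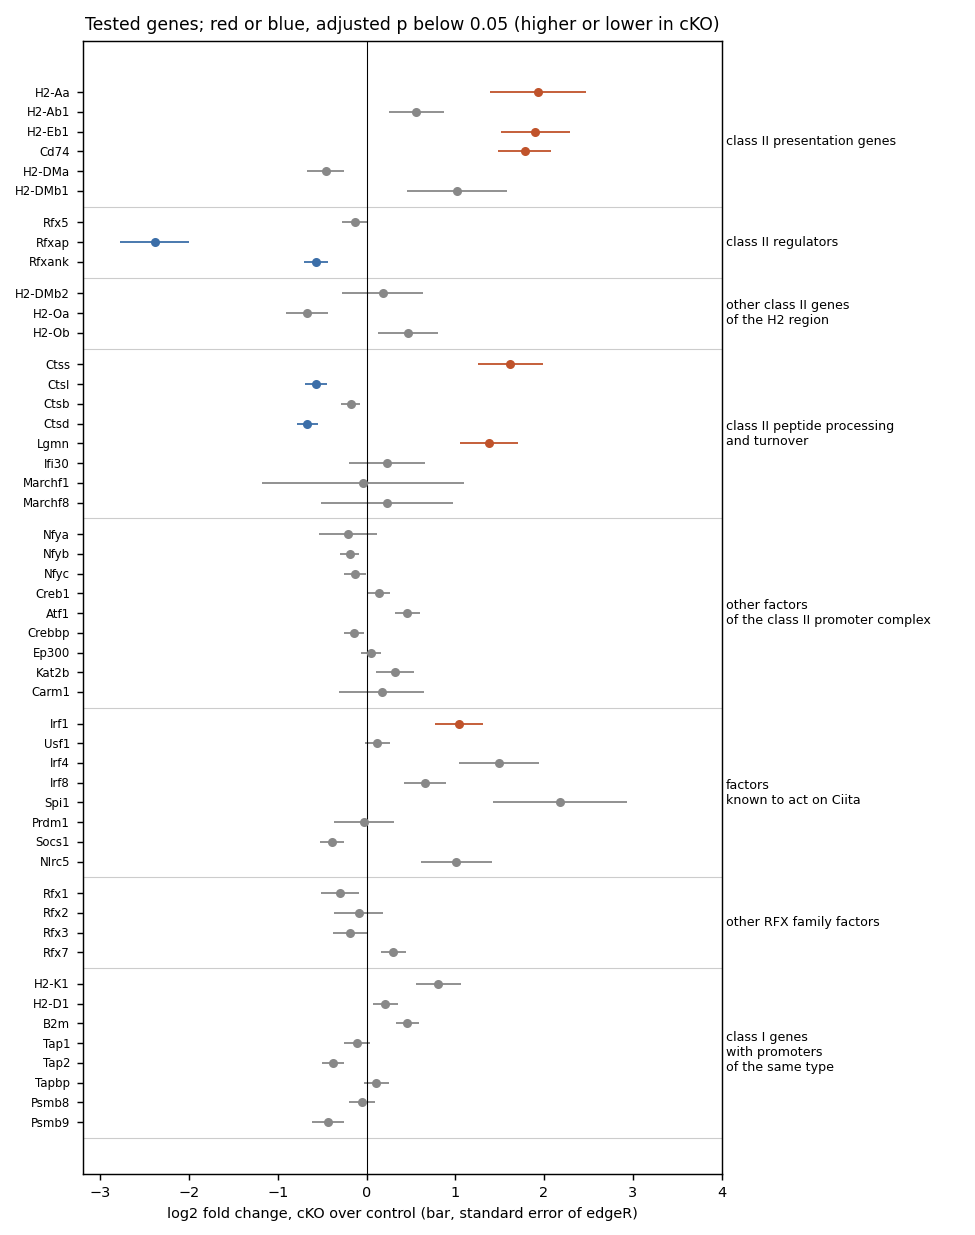
Log2 fold changes (cKO over control, points) with the standard error of edgeR (bars) for the tested members and for tested genes of the related lists. Red and blue mark genes called higher or lower in cKO and grey those not called. Cd74 lay at 1.78, H2-Aa at 1.93 and Rfxap at -2.39, while all 9 promoter complex factors were not called.

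Class II is made by cells that are not thymocytes, and the markers of these cells were counted in the same libraries. The libraries held the DP markers at high levels, with Rag1 at 1950 to 2540 CPM in control and 1110 to 1540 CPM in cKO libraries. All 10 DP markers were tested and all had negative log2 fold changes, with a median of -0.39. Their summed level was 10700, 12600 and 10700 CPM in control and 7810, 9270 and 7880 CPM in cKO libraries, so that the groups were apart. At an unadjusted p below 0.05 (edgeR) stood 6 of them, 3 were called lower (Rag1, Cd8b1 and Cd3e) and none was called higher. Without cKO 3, none of the 3 was called (adjusted p-values of 0.0656, 0.161 and 0.0709). Of the fits with 1 library left out, Cd8b1 was called only in that without control 1 (0.00546), and Cd3e also lost its call without control 2 (0.0511). Of the 10 markers of mature single-positive thymocytes, 7 were tested (median log2 fold change -0.34) and 1 was called. This was Cd69, a surface marker of activated and positively selected thymocytes, which rose from 201, 159 and 119 CPM to 681, 187 and 460 CPM (1.47, edgeR adjusted p = 0.0344), although control 1 lay above cKO 2. Its call was lost without control 2 (0.0988), control 3 (0.0943), cKO 1 (0.124) or cKO 3 (0.122).

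Taken as a sum, macrophage markers were higher in the same libraries as the presentation genes. Of 12, 9 were tested and 5 rose, the median log2 fold change over the 9 was 2.71, and all 9 had positive values. Their summed level was 25.9, 12.2 and 6.99 CPM in control and 62.1, 49.5 and 71.9 CPM in cKO libraries, so that the groups were apart. Adgre1, which encodes F4/80, had 0 counts in all control and 50, 42 and 52 counts in cKO libraries, which is at least 49.3-fold higher against 3 counts over the control group, and it passed the filter on low counts through the cKO libraries alone. Vcam1 (3.54, edgeR adjusted p = 0.00825), the complement genes C1qc (3.09, adjusted p = 0.00768) and C1qb (2.71, adjusted p = 0.0088) and Cd68 (2.04, adjusted p = 0.0265) rose too, and Mertk was at 0 in all libraries. Vcam1, with 10, 7 and 5 counts in control libraries, C1qa and Mrc1 also passed the filter only because of the cKO libraries. The median and the signs of the list include these genes and Adgre1. Csf1r hardly differed, at 1.71, 1.23 and 1.98 CPM in control and 1.51, 1.61 and 2.63 CPM in cKO libraries. Csf1r (0.22, SE 0.54, edgeR adjusted p = 0.837) and Mrc1 (1.51, SE 1.33, adjusted p = 0.5) were not called and overlapped between the groups. C1qa (adjusted p = 0.0572) and Lyz2 (adjusted p = 0.0778) were not called either, although their groups were apart. Without cKO 3, Adgre1 alone was still called, whereas C1qb, C1qc, Vcam1 and Cd68 had adjusted p-values of 0.0594, 0.0543, 0.0554 and 0.131. Cd68 was not called without control 2 (0.0901), control 3 (0.0711) or cKO 1 (0.0801) either. Within the cKO group, cKO 1 was the highest library for Cd74 and H2-Aa. Among the macrophage markers this held for Fcgr1 and for Lyz2, the most abundant (27.3, 18.8 and 24.8 CPM in cKO libraries). For Adgre1, C1qa, C1qb, C1qc, Csf1r, Cd68, Vcam1, Timd4, Mrc1 and the macrophage sum, cKO 3 was the highest. The part of macrophage RNA in the levels of the presentation genes was not tested.

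Markers of the other class II bearing cells were counted in the same way. Of the 10 B cell markers, 3 were tested, none rose and Cd79b fell (-0.70, edgeR adjusted p = 0.0194), a call that was lost without control 2 (0.0774), cKO 1 (0.0754) or cKO 3 (0.0781). Ighm was at 840 to 1250 CPM, and without Ighm and Cd79b the summed level was 2.44, 2.72 and 2.6 CPM in control and 5.34, 4.89 and 4.34 CPM in cKO libraries, so that the groups were apart. Of these, Blnk was at 1.45, 0.874 and 1.4 CPM in control and at 2.15, 3.07 and 2.49 CPM in cKO libraries, and Cd79a had 4, 0 and 2 counts in control and 23, 0 and 8 counts in cKO libraries. Dendritic cell markers summed to 20, 30.4 and 19.9 CPM in control and 36.1, 16.7 and 8.72 CPM in cKO libraries. Ccr7, a gene of mature thymocytes as well, gave 16.9, 28.3 and 16 CPM of this in control and 29, 9.95 and 3.69 CPM in cKO libraries. The rest of the sum, from genes with low counts, was higher in each cKO than in each control library. Of these 10 markers 3 were tested and none was called by edgeR or DESeq2 (0 at an unadjusted p below 0.05), Clec9a was at 0 in all libraries, and Itgax had 4, 0 and 16 counts in control and 0, 12 and 1 counts in cKO libraries. Xcr1 had 5, 5 and 6 counts in control and 36, 4 and 27 counts in cKO libraries, Ccl22 had 0, 8 and 0 against 44, 8 and 17 counts, and Batf3 had 0, 0 and 0 against 1, 1 and 4 counts. Within the cKO group, Xcr1, Ccl22 and Ccr7 were highest in cKO 1, as were Cd74 and H2-Aa. Flt3, Zbtb46 and Itgax were instead highest in cKO 2, and Siglech and Batf3 in cKO 3. Cd209a was counted in control 2 only, with 4 counts. Thymic epithelial markers summed to 42.5, 46.2 and 40.4 CPM in control and 45, 47.5 and 45 CPM in cKO libraries. None of the 4 tested was called by edgeR or DESeq2 (1 at an unadjusted p below 0.05), Krt5 and Cldn3 were at 0 in all libraries and Foxn1 was counted in cKO 2 only, with 18 counts. Prss16 had 0 counts in each control and 9, 15 and 10 counts in cKO libraries. Ccl25 was at 5.97, 5.6 and 5.28 CPM in control and at 6.76, 9.27 and 11 CPM in cKO libraries. The groups of both genes were apart and higher in cKO. Of the 4 tested epithelial markers, Ccl25 alone had a positive log2 fold change. The other 3 were negative (Epcam -0.18, Psmb11 -0.61 and Ly75 -0.01) and overlapped between the groups, and the median was -0.10. The part of these cells in the class II values was not tested.

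**Figure D4:**
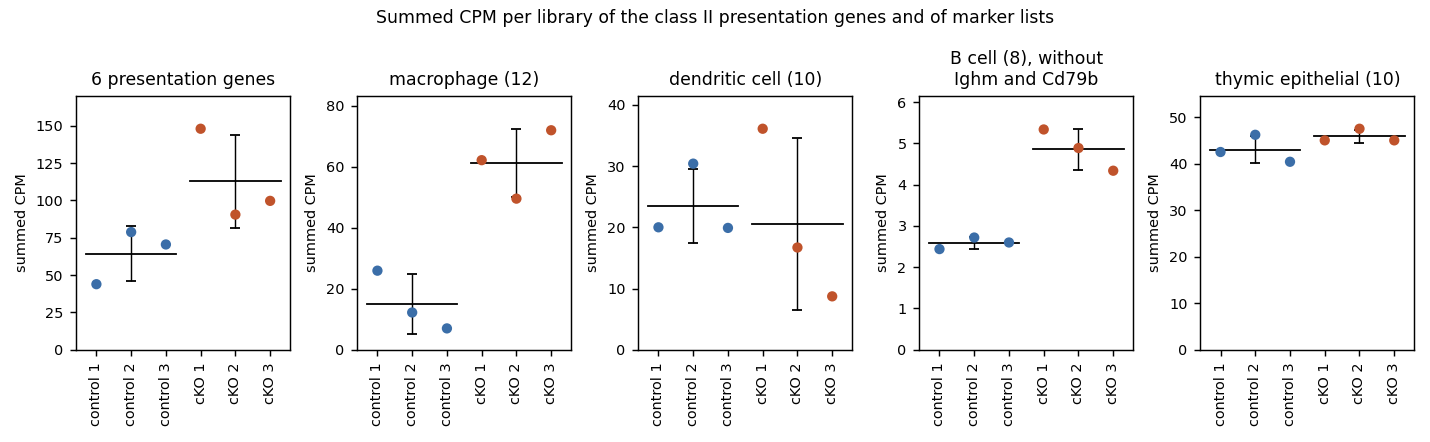
Summed CPM per library of the 6 presentation genes and of the marker lists, with the number of genes in parentheses, on axes that start at 0 and differ between panels. Points are libraries, horizontal lines group means and bars SD (n = 3). The presentation genes, the macrophage markers and the B cell markers without Ighm and Cd79b were higher in all cKO libraries, whereas the dendritic cell and epithelial sums overlapped between the groups. The dendritic cell sum shown includes Ccr7, and the rest of it was higher in all cKO libraries.

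Genes with the profile nearest to that of Rfxap were found by the root mean square difference of mean-centred log2 CPM over the 6 libraries. They were Ankrd13a (0.364), Pitpna (0.382), Ppp2ca (0.413), Msl3l2 (0.426) and H1f0 (0.472). Ankrd13a held 92.2, 221 and 276 CPM in control and 66.3, 67.2 and 51.4 CPM in cKO libraries. As for Rfxap, control 1 was the lowest control library in each of the 5. Nearest to the mean profile of the presentation genes were Jaml (0.114), Ppa1 (0.153), Grk4 (0.166), Aoc2 (0.167) and Trgc1 (0.175). Jaml was at 1.82, 2.42 and 2.29 CPM in control and at 7.12, 4.22 and 5.08 CPM in cKO libraries, with cKO 1 the highest, as for Cd74. The profiles share libraries and depth and were picked for their likeness, so they carry no test.

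**Figure D5:**
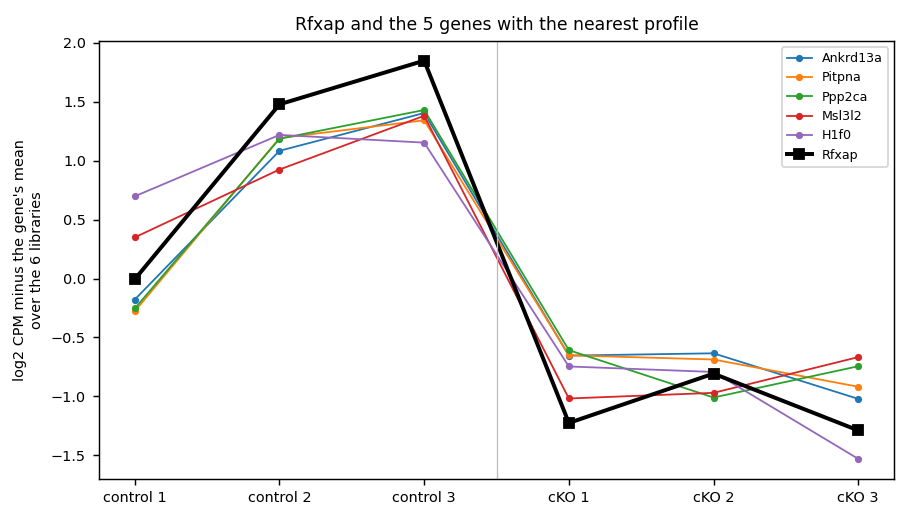
Log2 CPM minus the mean of the gene over the 6 libraries, for Rfxap (black squares) and the 5 genes with the nearest profile (coloured points), where lines only join the points of a gene. In every gene the 3 control libraries lay above the 3 cKO libraries, and control 1 was the lowest control.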

How the data were processed

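RNA was extracted from sorted DP thymocytes and its cDNA was pre-amplified. The labels name a SMARTER kit, whereas the methods name a Discover-sc kit for cDNA and a TruePrep kit for libraries. The deposited counts per gene carry no normalization, and the deposited FPKM values were scaled by the authors to gene length and library size. Columns with the authors' mean FPKM, log2 ratio, p-value and FDR were deposited too and were not used. Unused columns of per-library values numbered 0. The submitters' processing notes name fastp 0.18.0, Bowtie2 2.2.8, HISAT2, StringTie and RSEM without their roles. Genome build, annotation and use of strand: not given in the sources used here. Gene positions were taken from GENCODE M21 (GRCm38) by identifier, with 22267 matches.

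The genotypes were compared with edgeR 4.0.16 under R 4.3.3 (TMM factors of 0.981 to 1.01, filterByExpr set to at least 10 counts and 15 in total, quasi-likelihood test, Benjamini-Hochberg adjustment over 11488 of 15349 genes with a count). The script was tested on simulated data. Genes named are the members, Paxbp1, the called genes of the related lists, examples of their highest levels, and the 5 nearest profiles. Other genes, such as Dexi, Nr2c2ap, H2-Oa and the uncalled or untested genes of the lists, were named after their values were seen. Some genes of the lists are not reported here by name, and counts, medians and sums of the lists include them. The members and lists were chosen with earlier results of these data known. Alternatives were DESeq2 1.42.0, limma-voom (limma 3.58.1), RLE factors, library totals, no filter, a filter at a mean of 1 CPM, a replicate block and leaving out each library.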

Additional observations from a re-analysis of the deposited data

How the results depend on the processing

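Across the 7 alternatives that kept all libraries, 3 members were called higher and 2 lower throughout, and no log2 fold change of a member changed sign. Deviations of same-numbered libraries from their group means correlated at 0.0451, 0.0377 and -0.03. These values showed no sign of pairing by replicate number but cannot exclude it. The replicate block called 3 members higher, 2 lower, and 570 genes higher and 668 lower in all. Genes called higher numbered 514, and 943 by DESeq2. Over the lists of related genes (without members), 3 were called higher, but 6 by DESeq2, 5 by limma-voom and 6 without a filter on low counts. Over the marker lists, 4 were called lower, but 8 by DESeq2. Irf1 had an adjusted p of 0.0522 by DESeq2 (0.0076 to 0.0522 over the alternatives with all libraries), and Paxbp1 was called higher by DESeq2 (0.0213) and limma-voom (0.039; 0.0213 to 0.103).

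Leaving out each library in turn gave 42 to 1000 genes called higher and 78 to 1030 lower, lowest without cKO 3 and highest without control 1. Members called higher ranged from 1 to 3 (1 without cKO 1 or cKO 3) and lower from 0 to 3 (0 without cKO 3). Related genes ranged from 0 to 6 higher (0 without control 3, cKO 1 or cKO 3) and from 0 to 4 lower. Markers ranged from 1 to 9 higher and from 0 to 11 lower. The mean summed level of the presentation genes was 64.4 CPM in control (57.2 to 74.7) and 113 CPM in cKO libraries (95.1 to 124). Depth limits Ciita and H2-DMb1, and counting intervals leave out the spread between libraries. The causes of these changes were not tested.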
